A study of Mus musculus with 31 samples.

Results

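Potassium channel genes were followed in total RNA sequencing of mouse brain from 13 control samples and 18 samples exposed to deltamethrin. They were taken by name: every gene symbol that starts with Kcn followed by a letter or digit. Of 99 such names among the 48795 genes counted, 4 antisense names were left out, and 12 of the other 95 had fewer than 10 counts in all but a few libraries. The remaining 83 genes reached 10 or more counts in at least 13 libraries, and 78 of them did so in all 31. On the mouse annotation (GENCODE M21, build GRCm38), 82 of the 83 are protein coding. The exception is Kcnq1ot1, a long noncoding RNA transcribed antisense to Kcnq1, which the name rule keeps although it is no channel subunit. The coding genes were placed by textbook class into 15 voltage-gated (Kv) alpha subunits, 9 silent Kv subunits, 11 Kv auxiliary genes, 5 KCNQ genes and 8 genes of the EAG, ERG and ELK group. The others are 10 calcium- and sodium-activated channel genes with their auxiliary subunits, 13 inward rectifiers (Kir) and 11 two-pore-domain (K2P) leak channels.

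Potassium channels let potassium leave the cell and pull the membrane voltage back towards rest. In neurons, Kv channels end the action potential and set how fast a cell can fire, KCNQ channels carry the M-current that damps repetitive firing, and calcium-activated channels shape the pause after a spike. Kir and K2P channels hold the resting potential, and in astrocytes Kir channels take up the potassium that active neurons release. Deltamethrin is a pyrethroid insecticide whose best known targets are voltage-gated sodium channels, which it keeps open for longer, so potassium channels act in the same cells on the opposite phase of the spike.

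The labels give the agent of each sample (deltamethrin or control) and the tissue (brain), and the series describes the exposure as developmental. Strain, age, sex, dose, route, litter and the control substance are not given in the sources used here, and no region of the brain is named. Nothing in the labels says that the samples are separate animals, so p-values measure the spread between these samples. Total counts ran from 17570311 to 35716869 in control (median 28846830) and from 24563143 to 38680621 in deltamethrin (median 30698475), and the smallest chi-square per degree of freedom among the 465 library pairs was 6.21, so no library was a copy of another. The 2 mitochondrial ribosomal RNA genes (mt-rRNA) took 8.49% to 40.2% of counts in control and 7.32% to 26.3% in deltamethrin, with the maximum in control replicate 2. Neuronal markers were high in both groups (Snap25 averaged 1114 counts per 1000000 in control and 1192 in deltamethrin). The 83 genes together took 0.405% ± 0.0755 of the counts in control (SD, n = 13; range 0.219% to 0.503%) and 0.421% ± 0.0668 in deltamethrin (SD, n = 18; range 0.304% to 0.533%). The lowest share was again that of control replicate 2, which also held the highest or the lowest scaled value of 26 of the 83 genes, against 15 for the library with the next most.

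The first question was whether any potassium channel gene differed between the deltamethrin and the control libraries. No gene passed: with edgeR's quasi-likelihood test on all 19529 genes tested, 0 of the 83 had a Benjamini-Hochberg adjusted p under 0.05, beside 0% of all genes, and the smallest adjusted p was 0.813 among the 83 and 0.441 among all genes. At an unadjusted p under 0.05 there were 5 of the 83 (6.02%), beside 4.37% of all genes tested. Kcnj16 was higher in deltamethrin, and Kcnh4, Kcnh3, Kcne2 and Kcnk5 were lower, so 1 gene stood on the higher side, where all genes have 2.0%, and 4 on the lower side, where all genes have 2.37%. The share of the 83 genes is near that background. DESeq2 also called 0 genes of the 83 after adjustment, with 5 at an unadjusted p under 0.05, and limma voom called 0 with 1. The share of all genes at an unadjusted p under 0.05 is given here for the main fit only. The count of 5 fell to 2 without control replicate 8 or control replicate 11, and to 3 without control replicate 1, 2, 3, 10 or 12 or deltamethrin replicate 2 or 3, each left out alone.

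Across all 83 genes the log2 fold changes (deltamethrin over control) ran from -0.53 to 0.32 with a median of 0.01, beside a median of 0.00137 over all genes tested. Values above 0 were found for 43 genes and below 0 for 40, and 5 genes lay more than 0.25 from 0 on the log2 scale. The median standard error was 0.098. By class, the median log2 difference was 0.07 for the Kv alpha subunits, 0.04 for the Kir genes, -0.03 for the EAG, ERG and ELK group and for the K2P genes, -0.04 for the silent subunits, -0.01 for the Kv auxiliary and the KCNQ genes, and -0.07 for the calcium- and sodium-activated group. Among the 15 Kv alpha genes, 13 had a log2 fold change above 0, beside 50.5% of all genes tested. Their smallest unadjusted p was 0.0947 (Kcnb2), and under the other settings 11 to 14 of the 15 were above 0. The medians of the BK, SK and Slack group, the EAG, ERG and ELK group, the K2P, the KCNQ and the Kv auxiliary genes changed sign under at least 1 setting.

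**Figure D1:**
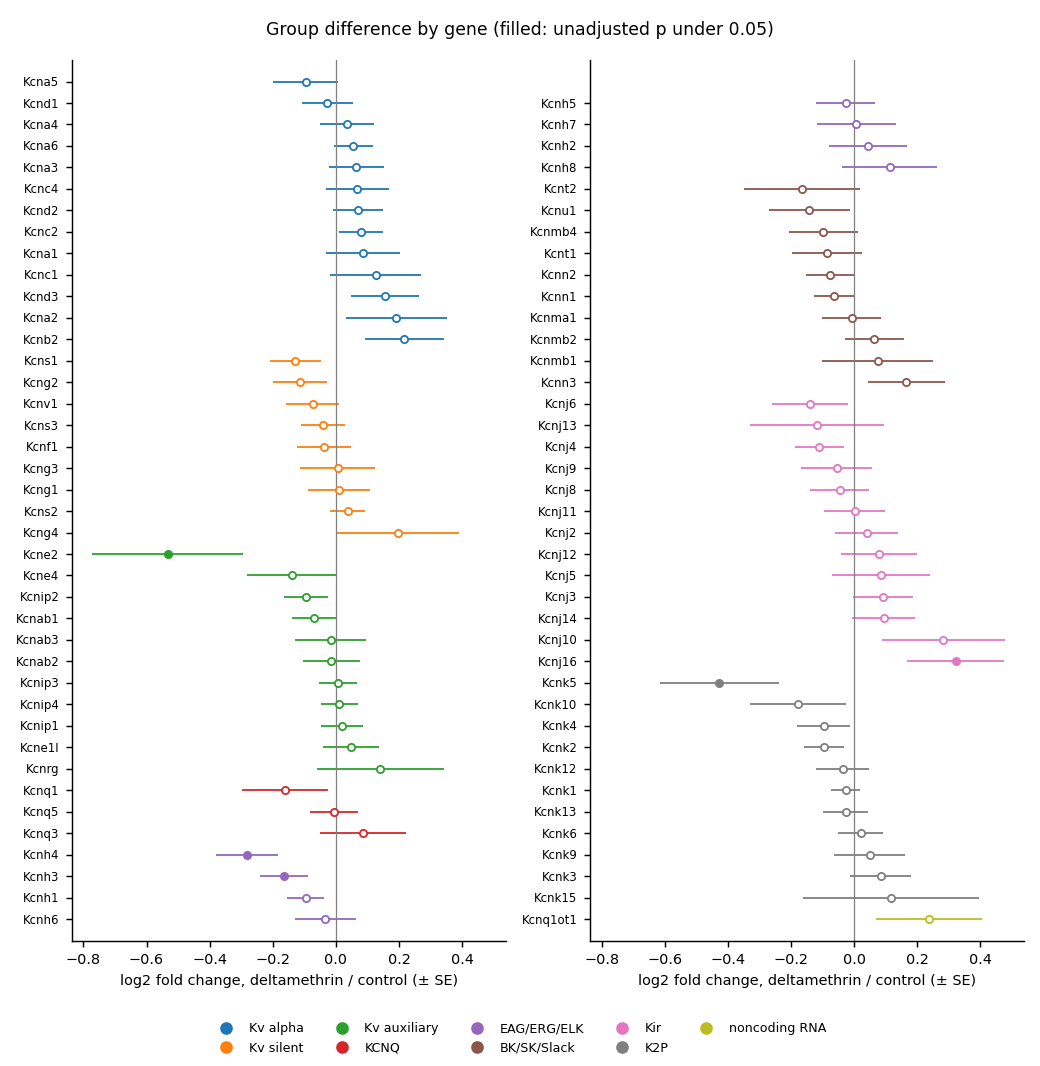
Log2 fold change (deltamethrin over control) with its standard error for the genes named on the axis, coloured by class and ordered within class, and filled where the unadjusted p was under 0.05. The points lie between -0.53 and 0.32 around 0, and 5 are filled.

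Levels of different genes are given below as counts per 1000000 library counts (CPM, scaled by TMM factors) per kilobase of annotated exon, as the mean ± SD over the 31 libraries, and levels of 1 gene across libraries as scaled CPM. The members' levels spanned from 0.130 CPM per kb (Kcnk5) to 67.9 CPM per kb (Kcnab2), with a median of 5.36.

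**Figure D2:**
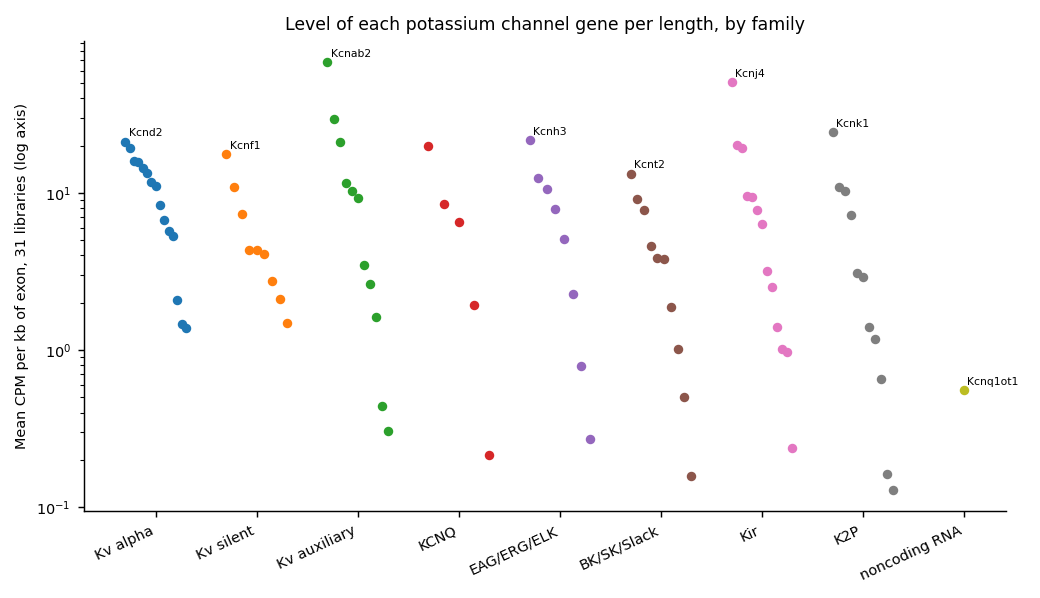
Mean level of each gene over the 31 libraries in CPM per kb of exon on a log axis, by class, with the top gene named in each class but KCNQ. Kcnab2 at 67.9 and Kcnj4 at 50.5 CPM per kb lie above all others, and every class but the silent subunits and Kv alpha subunits reaches below 1.

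The Kv alpha subunits form the pore of the voltage-gated channels, and their median level of 11.1 CPM per kb was above that of every other class. Kcnd2, which carries the A-type current of dendrites, was at 21.1 ± 3.13 CPM per kb, Kcna1, an axonal delayed rectifier subunit, at 19.4 ± 4.55, and Kcnc1, the fast Kv3 subunit of fast-spiking cells, at 15.9 ± 4.57. Kcnd1 was lowest at 1.38 ± 0.212. The ranges of Kcnc1 in the 2 groups overlapped almost fully: control libraries had 90.5, 154 and 205 CPM (lowest, median, highest) and deltamethrin libraries 87.0, 144 and 242 CPM. Its log2 fold change was 0.13 ± 0.15 (SE). Kcna1 had 63.5, 93.4 and 115 CPM in control and 59.6, 89.2 and 148 CPM in deltamethrin, and its log2 fold change was 0.08 ± 0.12.

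Kcnb2, a Kv2 delayed rectifier, had the smallest p among the Kv alpha genes. It measured 14.97, 20.2 and 27.8 CPM in control (lowest, median, highest) and 13.5, 21.5 and 42.8 CPM in deltamethrin. The deltamethrin range enclosed the control range, and deltamethrin replicate 1 held the highest value. The means were 20.3 ± 3.64 CPM (SD, n = 13) and 23.6 ± 7.38 CPM (SD, n = 18), and the log2 fold change was 0.22 ± 0.13 with an edgeR p of 0.0947 and an adjusted p of 0.813.

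Silent subunits form no channel alone but join Kv2 subunits and change their gating. Kcnf1 led the class with 17.6 ± 2.80 CPM per kb, followed by Kcnv1 with 10.9 ± 1.88 and Kcng4 with 7.34 ± 2.62, and Kcng3 was lowest with 1.49 ± 0.358. Kcns2 was one of the steadiest of the 83 genes, with a coefficient of variation (CV) of 9.91% over the 31 libraries. Kcng4 was one of the more variable, with a CV of 35.7% and a 7.94-fold range from 5.95 CPM in control replicate 1 to 47.2 CPM in deltamethrin replicate 2. No silent subunit had an unadjusted p under 0.05.

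The Kv auxiliary genes encode cytoplasmic beta subunits (Kcnab), calcium-binding Kv4 partners (Kcnip), small membrane-spanning subunits (Kcne) and Kcnrg, a soluble protein that interferes with Kv assembly. They held the highest level of all members, Kcnab2 at 67.9 ± 10.8 CPM per kb, followed by Kcnip2 at 29.5 ± 3.87 and Kcnip3 at 21.2 ± 2.21. Kcnip3 varied little between libraries (CV 10.5%). Kcnrg was lowest of the class at 0.306 ± 0.110, with 2 to 39 counts per library. Kcnrg had a log2 fold change of 0.14 ± 0.20, which ran from 0.083 (without deltamethrin replicate 3) to 0.22 (without control replicate 5) with 1 library left out and was 0.03 with the 3 region scores as covariates. Kcnab2 had 213, 396 and 466 CPM in control (lowest, median, highest) and 288, 375 and 471 CPM in deltamethrin, and its log2 fold change was -0.01 ± 0.09.

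Kcne2, a small subunit that in the choroid plexus epithelium pairs with Kcnq1 and Kv1 channels, had the largest log2 difference of the 83 genes and, at 68.2%, the largest CV among those with a mean of 50 or more counts. Control libraries had 1.24, 2.39 and 10.2 CPM (lowest, median, highest), and deltamethrin libraries 1.40, 2.13 and 3.81 CPM. The medians were close, the ranges overlapped, and 2 control libraries stood far above all others, replicate 2 at 10.2 CPM and replicate 7 at 8.83 CPM. The means were 3.55 ± 2.79 CPM (SD, n = 13) and 2.35 ± 0.736 CPM (SD, n = 18), and the log2 fold change was -0.53 ± 0.24 with an edgeR p of 0.0330 and an adjusted p of 0.813. Without control replicate 7 it was -0.33 (p 0.153), without control replicate 2 it was -0.33 (p 0.132), and without both it was -0.05 (p 0.786). Limma voom gave -0.23 (p 0.300).

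Kcnj13, the Kir7.1 rectifier of the choroid plexus, is the other member known for that epithelium. It had 0.582, 1.196 and 3.39 CPM in control (lowest, median, highest) and 0.388, 1.18 and 2.04 CPM in deltamethrin, from 11 to 81 counts per library. The 2 groups overlapped over most of their range, and control replicate 7 was again the highest library. The log2 fold change was -0.12 ± 0.21 (p 0.582), and it was 0.083 without control replicate 7. Of its 1270 exon bases, 623 overlap exons of Gigyf2 on the opposite strand, and whether the counting used strand is not given in the sources used here. The 11 choroid plexus marker genes summed to 275, 541 and 1333 CPM in control (lowest, median, highest) and to 255, 473 and 741 CPM in deltamethrin, with control replicate 7 highest. Of these markers 10 were lower in deltamethrin and 2 of them, Ttr and Folr1, had an unadjusted p under 0.05. The marker score differed by -0.16 log2 units between the groups (permutation p 0.383, adjusted over 12 measures 0.656). With the choroid plexus, cerebellar and striatal scores as covariates, the log2 fold change of Kcne2 was -0.20 (p 0.227). In bulk tissue, fewer cells of a type and less RNA per cell cannot be told apart.

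The promoter windows of these genes and of the glial pair Kcnj10 and Kcnj16 are printed because these 4 genes moved with the make-up of the libraries. The windows run from 250 bases before to 50 bases after the RefSeq start (build GRCm38.p6), 5′ to 3′ on the gene's strand, and capitals mark the GC box GGGCGG or the TATA box TATAAA on either strand. They lie at chr16:92292139-92292438 (plus strand) for Kcne2, chr1:87394680-87394979 (minus strand) for Kcnj13, chr1:172340960-172341259 (plus strand) for Kcnj10 and chr11:110967783-110968082 (plus strand) for Kcnj16, each at the annotated start of its gene.
Kcne2: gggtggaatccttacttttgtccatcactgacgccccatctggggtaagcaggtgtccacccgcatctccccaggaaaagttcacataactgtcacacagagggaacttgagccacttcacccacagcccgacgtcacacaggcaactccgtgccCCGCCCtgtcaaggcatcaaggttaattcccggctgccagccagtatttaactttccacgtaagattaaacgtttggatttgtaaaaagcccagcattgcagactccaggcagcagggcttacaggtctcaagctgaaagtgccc
Kcnj13: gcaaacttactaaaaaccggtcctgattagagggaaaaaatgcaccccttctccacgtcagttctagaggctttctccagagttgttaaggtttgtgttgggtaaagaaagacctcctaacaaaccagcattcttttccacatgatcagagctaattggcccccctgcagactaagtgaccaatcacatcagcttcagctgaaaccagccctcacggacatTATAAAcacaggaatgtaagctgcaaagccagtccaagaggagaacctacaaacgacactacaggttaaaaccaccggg
Kcnj10: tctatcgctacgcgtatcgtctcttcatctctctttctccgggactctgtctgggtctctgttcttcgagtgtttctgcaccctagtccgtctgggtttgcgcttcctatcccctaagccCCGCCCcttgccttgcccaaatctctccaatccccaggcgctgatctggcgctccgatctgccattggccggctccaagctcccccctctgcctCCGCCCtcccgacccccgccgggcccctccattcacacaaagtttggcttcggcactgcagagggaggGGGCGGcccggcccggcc
Kcnj16: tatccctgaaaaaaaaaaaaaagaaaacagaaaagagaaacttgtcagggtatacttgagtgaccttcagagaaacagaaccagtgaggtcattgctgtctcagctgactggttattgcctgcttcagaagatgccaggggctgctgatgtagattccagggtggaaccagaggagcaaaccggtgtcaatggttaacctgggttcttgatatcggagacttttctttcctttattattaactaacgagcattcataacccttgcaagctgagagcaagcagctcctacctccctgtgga
Kcnj13 had a TATA box, Kcne2 had 1 GC box and Kcnj10 had 3, and these letters do not occur in the Kcnj16 window. GC content was 46.0% for Kcnj13, 44.3% for Kcnj16, 53.0% for Kcne2 and 63.7% for Kcnj10. RefSeq windows, each at the listed start nearest the annotated one, were matched for 60 of the 83 genes. Of the 60, 32 (53.3%) held GGGCGG. The background, 27025 windows of that length at the first listed start of every RefSeq gene, had 35.9%. TATAAA was in 2 of the 60 (3.33%), Kcnj13 and Kcnj9, beside 14.2% of the background windows. Median GC was 62.2% in the 60 windows and 52.7% in the background. In the EAG, ERG and ELK group, 7 of 7 matched windows held GGGCGG. The windows of Kcnip4, Kcnj12, Kcnh2 (in that group) and Kcnma1 lay 10286 bases or more from the annotated start.

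KCNQ subunits carry the M-current, a slow current that muscarinic receptors close. Kcnq3, an M-current subunit, was at 8.45 ± 2.35 CPM per kb and Kcnq5 at 6.55 ± 0.967. Kcnq1, best known from heart and epithelia, was lowest at 0.214 ± 0.0508. The log2 fold changes of Kcnq3 and Kcnq5 were 0.09 ± 0.14 and -0.01 ± 0.08. No KCNQ gene had an unadjusted p under 0.05.

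The EAG, ERG and ELK group of voltage-gated channels held 2 of the 5 genes with an unadjusted p under 0.05. That is 25% of its 8 genes, beside 4.37% of all genes tested, and whether the class differs from that share was not tested. After adjustment 0 of the 8 passed. Levels were highest for Kcnh3 (21.6 ± 3.30 CPM per kb), Kcnh1 (12.4 ± 1.36) and Kcnh5 (10.6 ± 1.99), and lowest for Kcnh8 (0.273 ± 0.0802). Kcnh3 and Kcnh4 encode ELK channels, which open at voltages below the spike threshold.

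Kcnh4 (chromosome 11, 100740376 to 100759942, minus strand) had the smallest p of the 83 genes. Control libraries had 7.86, 9.98 and 12.03 CPM (lowest, median, highest), and deltamethrin libraries 4.28, 8.33 and 10.6 CPM. The ranges overlapped, but 15 of the 18 deltamethrin libraries lay below the control median. The means were 10.04 ± 1.505 CPM (SD, n = 13) and 8.24 ± 1.68 CPM (SD, n = 18), and the log2 fold change was -0.28 ± 0.10 with an edgeR p of 0.00674 and an adjusted p of 0.813. The 95% interval of the log2 fold change was -0.48 to -0.09, not adjusted for the choice of this gene by its p. The unadjusted p stayed under 0.05 in the 10 other settings tried and in each of the 31 fits with 1 library left out, where the largest was 0.0149 without control replicate 13. Its adjusted p over all these fits lay between 0.48 and 0.982. Striatal markers are given beside it: 9 of 9 were lower in deltamethrin, none with an unadjusted p under 0.05, their sums ran from 746 to 1364 CPM in control and from 576 to 1409 CPM in deltamethrin, and Kcnh4 had r = 0.303 with the striatal score (permutation p 0.0963, adjusted 0.248). With the choroid plexus, cerebellar and striatal scores as covariates the log2 fold change was -0.26 (p 0.0175).

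Kcnh3 (chromosome 15, 99224861 to 99242817, plus strand) had 82.6, 137 and 168 CPM in control (lowest, median, highest) and 96.3, 119 and 137 CPM in deltamethrin. Here 17 of the 18 deltamethrin libraries lay below the control median, while the lowest library of all was a control. The means were 132 ± 23.6 CPM (SD, n = 13) and 118 ± 12.4 CPM (SD, n = 18), and the log2 fold change was -0.16 ± 0.08 with an edgeR p of 0.0397 and an adjusted p of 0.813. The p was under 0.05 in 16 of the 31 fits with 1 library left out and was largest, 0.0928, without control replicate 6. Without scaling factors it was 0.199.

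Among the calcium- and sodium-activated genes, Kcnt2 and Kcnt1, sodium-activated Slack-type channels, were highest at 13.3 ± 5.36 and 9.15 ± 2.07 CPM per kb, followed by Kcnma1, the BK channel pore, at 7.78 ± 1.45. Kcnmb1, a BK beta subunit best known from smooth muscle, was lowest at 0.159 ± 0.0470. Kcnt2 was among the most variable of the 83 genes, with a CV of 40.3%, and had 55.0, 80.02 and 191 CPM in control (lowest, median, highest) and 42.4, 79.1 and 174 CPM in deltamethrin. The group medians were within 1 CPM of each other, and the highest library was control replicate 2. Its log2 fold change was -0.17 ± 0.18 (p 0.370), and no gene of the class had an unadjusted p under 0.05.

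Inward rectifiers pass potassium more easily near the resting potential than at the voltages of a spike. Kcnj4, a strong rectifier, was at 50.5 ± 7.57 CPM per kb, Kcnj9, a subunit of the G-protein-gated (GIRK) channels, at 20.2 ± 4.22, and Kcnj10, the Kir4.1 channel of astrocytes and oligodendrocytes, at 19.4 ± 8.09. Kcnj5 was lowest at 0.237 ± 0.0659. The levels of Kcnd2, Kcnj9, Kcna1 and Kcnj10 lay within 2 CPM per kb of each other, less than the SD of each, so their order is not distinguished.

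Kcnj16 encodes Kir5.1, which joins Kir4.1 in glial channels, and it was the only member higher in deltamethrin at an unadjusted p under 0.05. Control libraries had 8.08, 10.2 and 16.8 CPM (lowest, median, highest), and deltamethrin libraries 8.33, 12.3 and 27.2 CPM. Of the 18 deltamethrin libraries, 14 lay above the control median, but only replicates 1, 2 and 3, at 23.3, 23.8 and 27.2 CPM, lay above the control maximum. The means were 10.9 ± 2.58 CPM (SD, n = 13) and 13.7 ± 5.47 CPM (SD, n = 18), and the log2 fold change was 0.32 ± 0.15 with an edgeR p of 0.0450 and an adjusted p of 0.813. In the fits with 1 library left out the p was under 0.05 in 18 of 31 and was largest, 0.0954, without deltamethrin replicate 3. With the 3 region scores as covariates it was 0.140, and limma voom gave 0.0941.

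Kcnj10, the partner of Kcnj16, showed the same 3 libraries on top and a CV of 41.8%. It had 38.7, 92.5 and 160 CPM in control (lowest, median, highest) and 57.2, 97.5 and 208 CPM in deltamethrin, and deltamethrin replicates 1, 2 and 3 were at 207, 208 and 200 CPM. The medians of the groups differed by less than the SD of either group. The log2 fold change was 0.28 ± 0.19 (edgeR p 0.155, adjusted 0.813), and with the mt-rRNA share as covariate it was 0.22 (unadjusted p 0.0216). That was the only 1 of the 10 other settings with an unadjusted p under 0.05. With the 3 region scores as covariates the edgeR p was 0.354, and 0 of the 31 fits with 1 library left out had a p under 0.05. The 8 astrocyte markers were all higher in deltamethrin without any at an unadjusted p under 0.05. They summed to 1866, 2622 and 3406 CPM in control (lowest, median, highest) and to 1986, 2914 and 5305 CPM in deltamethrin, with deltamethrin replicate 3 highest. The astrocyte marker score (mean log2 CPM) was highest in deltamethrin replicates 1, 2 and 3, at 7.91, 8.14 and 8.04. Next came control replicate 9 at 7.80. The part of astrocyte content in the Kcnj10 and Kcnj16 values was not tested. Kcnj8, the rectifier of pericytes, had means of 3.64 ± 0.728 CPM (SD, n = 13) and 3.54 ± 0.521 CPM (SD, n = 18) and a log2 fold change of -0.05 ± 0.09 (p 0.629), which was -0.09 when control replicate 7 and -0.003 when control replicate 1 was left out, the extremes of such fits.

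K2P channels carry the background leak. Kcnk1 was at 24.2 ± 1.70 CPM per kb, Kcnk2 (TREK-1, opened by stretch and lipids) at 10.9 ± 1.39 and Kcnk12 at 10.3 ± 1.64. Kcnk1 had the smallest CV of the 83 genes, 7.02%, from 43.9 to 60.4 CPM in control and from 44.7 to 60.5 CPM in deltamethrin. Kcnk10 (TREK-2) had a CV of 39.5%. Control replicate 2 stood at 77.6 CPM, and the next highest library at 35.7 CPM.

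Kcnk5 (TASK-2, an alkaline-activated channel best known from kidney) was the lowest member per length, with 3 to 26 counts per library. Control libraries had 0.135, 0.491 and 1.02 CPM (lowest, median, highest), and deltamethrin libraries 0.184, 0.375 and 0.654 CPM. The control range enclosed the deltamethrin range, and 14 of the 18 deltamethrin libraries lay below the control median. The means were 0.525 ± 0.215 CPM (SD, n = 13) and 0.380 ± 0.123 CPM (SD, n = 18), and the log2 fold change was -0.43 ± 0.19 with an edgeR p of 0.0303 and an adjusted p of 0.813. The p was 0.0602 without control replicate 2, the highest library, and at most 0.0636 with any other library left out.

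Kcnq1ot1, the noncoding RNA of the imprinted Kcnq1 region, had 33.4, 40.8 and 96.3 CPM in control (lowest, median, highest) and 30.1, 49.3 and 93.5 CPM in deltamethrin. Control replicate 7 held the highest value, and 13 of the 18 deltamethrin libraries lay above the control median. The log2 fold change was 0.24 ± 0.17 (p 0.167), and without control replicate 7 it was 0.37 (unadjusted p 0.0237). Of the 31 fits with 1 library left out, that was the only 1 with an edgeR p under 0.05. The largest p in these fits was 0.285, with a log2 fold change of 0.18, without deltamethrin replicate 6. The p was under 0.05 in 0 of the 10 other settings, and under 0.05 without control replicates 2 and 7 (log2 fold change 0.39).

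**Figure D3:**
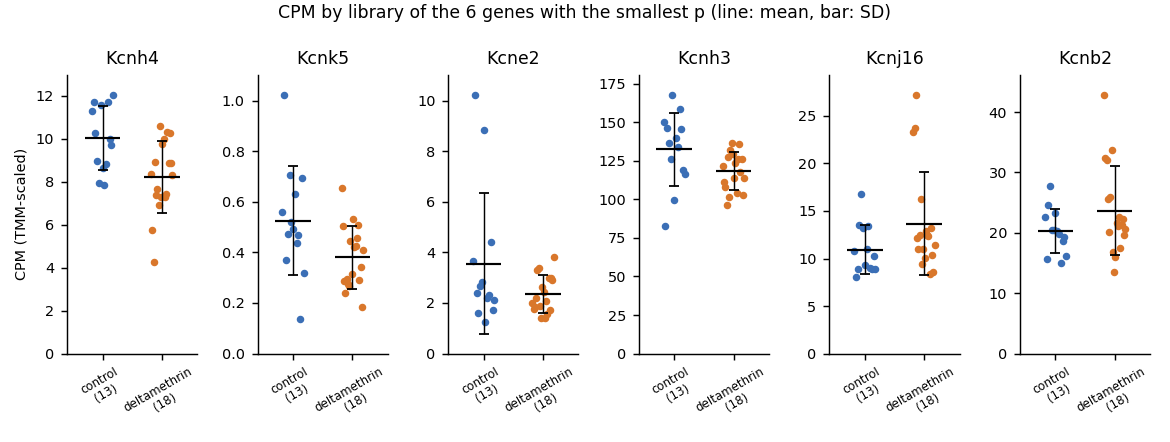
Scaled CPM in each library of the 6 genes with the smallest p, with the mean (line) and SD (bar) of the 13 control and 18 deltamethrin libraries. All 6 pairs of groups overlap, and single libraries stand apart for Kcne2 (control, 10.2 and 8.83 CPM) and Kcnj16 (deltamethrin, 23.3 to 27.2 CPM).

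The libraries differed from each other more in composition than by group, so each of the 83 genes was set against 6 composition measures over the 31 libraries: the mt-rRNA share and marker scores of choroid plexus, cerebellum, striatum, oligodendrocytes and pericytes. None of 12 composition measures compared differed between control and deltamethrin (smallest permutation p 0.137, smallest adjusted p 0.532). Of 498 gene by measure pairs, 84 had a Benjamini-Hochberg adjusted permutation p under 0.05, and 56 of the 83 genes had at least 1 such pair. All 84 had the same sign in both groups. The 84 were picked by their r over these same 31 libraries, so this agreement is no independent check. No other genes were set against these measures, so whether such a share is particular to potassium channel genes was not tested. Gene and measure come from the same library and share its scaling, and without scaling factors the number of pairs was 212, of which 66 were among the 84.

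The mt-rRNA share accounted for 41 of the 84 pairs, 32 of them negative. Kv alpha genes made up 12 of the 32: Kcnc1 had r = -0.895 (rho -0.910), Kcna1 r = -0.890 (rho -0.920) and Kcnc4 r = -0.887 (rho -0.874), each with a permutation p of 1e-05, the smallest that 100000 resamples give, and an adjusted p of 0.000178. Without the 2 farthest libraries (control replicates 2 and 7) r was -0.889, -0.899 and -0.825. Within control r was -0.883, -0.924 and -0.918, and within deltamethrin -0.928, -0.910 and -0.860. Kcnj10 had r = -0.885. Libraries with a high mt-rRNA share had low scaled levels of these genes in either group. The 9 positive pairs included 5 genes of the calcium- and sodium-activated class, with Kcnt2 at r = 0.849 (rho 0.856). Without scaling factors the median r of all 83 genes with the mt-rRNA share moved from -0.345 to -0.633.

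Choroid plexus content went with 3 genes, 2 of them positively. Kcnj13 had r = 0.860 with the choroid plexus score (rho 0.778, permutation p 1e-05, adjusted 0.000178), with 0.815 left without the 2 farthest libraries, 0.917 in control and 0.803 in deltamethrin. Kcne2 had r = 0.749 (rho 0.704, same p), with 0.643 without these libraries, 0.789 in control and 0.710 in deltamethrin. Kcne2 also had r = 0.680 with the mt-rRNA share. Among the 83 genes, the profiles most like that of Kcne2 were those of Kcnj13 (r = 0.678 over 31 libraries) and Kcnn2, a calcium-activated SK channel (r = 0.677).

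Cerebellar content went with 18 genes, 14 of them positively. Kcng4 had r = 0.887 with the cerebellar score (rho 0.814) and Kcnj12, a strong Kir2 rectifier, r = 0.823 (rho 0.893), each with a permutation p of 1e-05 and an adjusted p of 0.000178. The 2 libraries farthest in cerebellar score, control replicate 1 and deltamethrin replicate 14, were the lowest, and without them r was 0.830 and 0.882. The value of Kcng4 in control replicate 1, 5.95 CPM, compares with a control median of 28.0 CPM. All 9 cerebellar markers were higher in deltamethrin, none with an unadjusted p under 0.05, and the score differed by 0.26 log2 units (permutation p 0.332, adjusted 0.656). Kcng4 and Kcnj12 had log2 fold changes of 0.20 ± 0.20 and 0.08 ± 0.12.

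Striatal content went with 6 genes, 4 positively and 2 negatively. Kcnab1, the Kv1 beta subunit, had r = 0.824 with the striatal score (rho 0.798), Kcnip2 r = 0.675 (rho 0.672) and Kcnk2 r = 0.602 (rho 0.648), with adjusted permutation p of 0.000178, 0.000178 and 0.00388. Without the 2 farthest libraries r was 0.811, 0.627 and 0.580. Their log2 fold changes were -0.07 ± 0.07, -0.09 ± 0.07 and -0.10 ± 0.06, beside striatal markers that were all lower in deltamethrin at no unadjusted p under 0.05. The part of striatal content in these differences was not tested.

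Oligodendrocyte content went with 10 genes, 3 positively and 7 negatively. Kcnk13 had r = 0.627 (rho 0.533), Kcne1l, a small Kcne subunit also called Kcne5, r = 0.619 (rho 0.667), and Kcnh1 r = -0.601 (rho -0.538), with adjusted permutation p of 0.00215, 0.00280 and 0.00305. The value of Kcnh1 turned to 0.136 without scaling factors, so its sign depends on the scaling. In all, 2 of the 10 genes, Kcnh1 among them, changed sign without scaling factors. Pericyte content went with 6 genes, led by Kcna3 at r = 0.520 (rho 0.458), Kcna1 at r = 0.485 and Kcnh2 at r = 0.485. Without the 2 farthest libraries (control replicate 5 and deltamethrin replicate 2) these were 0.418, 0.405 and 0.370 and the adjusted p no longer passed. Kcnj8, the member known from pericytes, had r = 0.391 with the pericyte score (permutation p 0.0300, adjusted 0.130).

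**Figure D4:**
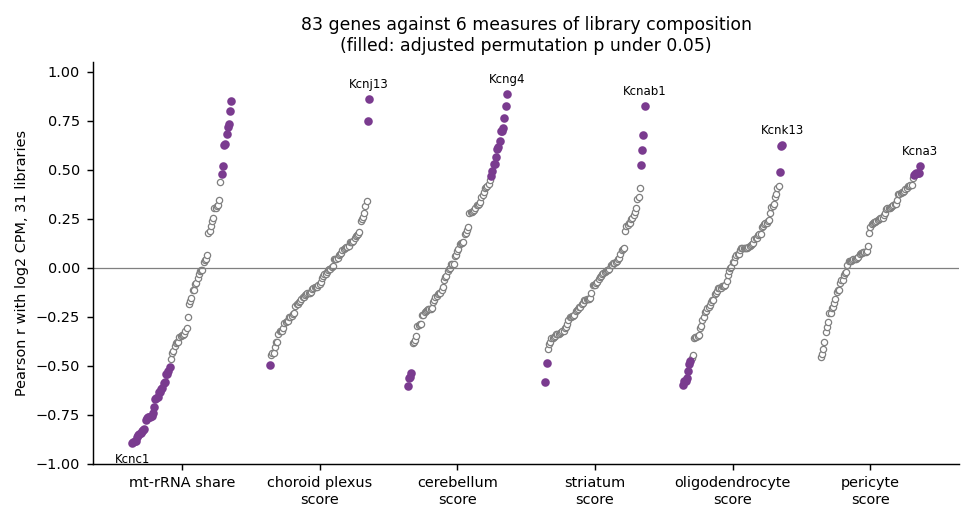
Pearson r of each of the 83 genes with 6 composition measures over 31 libraries, filled where the adjusted permutation p was under 0.05, with the gene of largest absolute r named. The mt-rRNA share has 41 filled points, 32 of them below 0, and the choroid plexus score has 3.

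**Figure D5:**
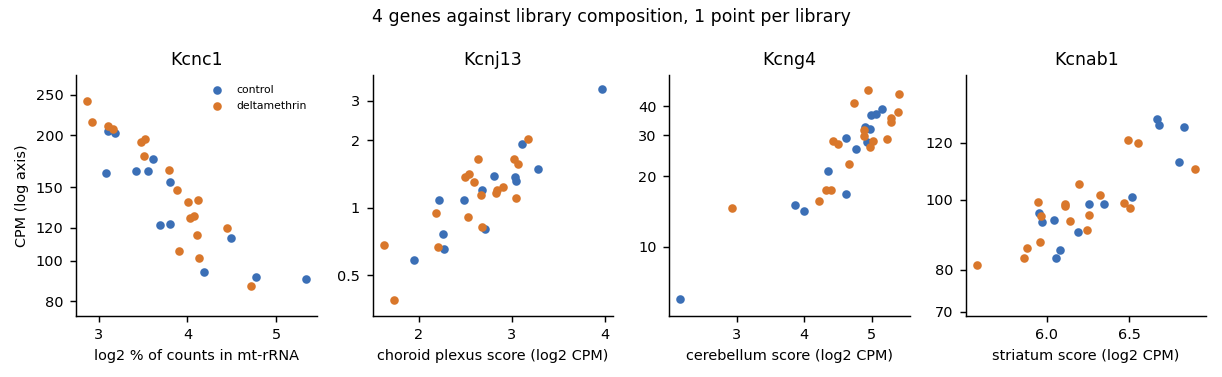
Scaled CPM (log axis) of Kcnc1, Kcnj13, Kcng4 and Kcnab1 in each library against the measure each follows most closely (log2 units), coloured by group. Control and deltamethrin libraries lie along the same trend in each panel, with r of -0.895, 0.860, 0.887 and 0.824.

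Subunits that form channels together were then compared across the 31 libraries, in 13 pairs known to assemble and 7 pairs of neighbouring genes, with p-values adjusted over the 20. Of the assembling pairs, 10 had an adjusted permutation p under 0.05, 8 of them with positive r. Kcna1 and Kcna2 had r = 0.899 (rho 0.899), and Kcnj10 and Kcnj16 had r = 0.857 (rho 0.847). After the mt-rRNA share was taken out of both genes, these were 0.759 and 0.779. For Kcnj10 and Kcnj16, r was 0.7998 in control, 0.898 in deltamethrin and 0.835 without the 2 farthest libraries. Over all 3403 pairs of the 83 genes the median r was 0.073, with 16 pairs above 0.9 and 257 below -0.5. These 3403 pairs were not tested, so the counts of passing pairs, assembling or neighbouring, have no background share beside them.

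Not all partners varied together. The GIRK subunits Kcnj3 and Kcnj6 had r = 0.055, and Kcnj3 and Kcnj9 had r = -0.386 (adjusted p 0.0431). Kcnd2 had r = 0.565 with Kcnip4 but r = -0.515 with Kcnip2 (adjusted p 0.00189 and 0.00634). The BK pore Kcnma1 and its brain beta subunit Kcnmb4 had r = -0.263 (adjusted p 0.169), with 0.256 in control and -0.558 in deltamethrin, a difference that was not tested. Kcna2 and its beta subunit Kcnab2 had r = 0.488, which became -0.449 once the mt-rRNA share was taken out of both.

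Of the 7 neighbour pairs, 4 had an adjusted p under 0.05 and 2 had r above 0.7. Kcna1 and Kcna6, 61945 bases apart on one chromosome, had r = 0.812, and Kcna2 and Kcna3, 63076 bases apart, had r = 0.726. The neighbours Kcnj9 and Kcnj10, 11892 bases apart, had r = 0.395, which was 0.767 in control, -0.032 in deltamethrin and 0.110 without the 2 farthest libraries. After the mt-rRNA share was taken out of both genes, r was 0.454 for Kcna1 and Kcna6, 0.530 for Kcna2 and Kcna3, and -0.467 for Kcnj9 and Kcnj10. Kcnq1 and Kcnq1ot1 overlap on opposite strands and had r = 0.012. With only 10 to 41 counts of Kcnq1 per library, counting noise limits this r.

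Genes outside the Kcn names that work with these channels were read from a list of 16 (pacemaker channels, Dpp6, Dpp10, sulfonylurea receptors and other partners). Of these 15 were tested, and Lrrc52 was too low, at a mean of 0.355 counts. None had an unadjusted p under 0.05, the smallest being 0.0716. Values lay above 0 for 11 and below 0 for 4, with a median log2 fold change of 0.05.

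The 12 genes that missed the count rule include Kcnj1, the ROMK channel of the kidney, Kcne1, known from heart and inner ear, and Kcnv2, known from the retina. Their totals over the 31 libraries ran from 5 counts (Kcnk16) to 207 counts (Kcnk7). Just outside the rule, Kcnn4 reached 10 counts in 7 libraries, and Kcnk7 in 5, and just inside it, Kcnk15 did so in 19 and Kcnk5 in 24.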

How the data were processed

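Gene counts of 31 brain libraries (13 control, 18 deltamethrin, grouped by the agent in the labels) were used as the authors deposited them, as raw whole-number counts in 1 table. Per the submitters' processing notes, Trimmomatic, HISAT2, SAMtools and MultiQC were used with build GRCm38. The counting tool, annotation and use of strand are not given in the sources used here, and 23 of the 83 genes have exons over an exon of an opposite-strand gene. The counts of such genes can hold reads of both.

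Genes were filtered with filterByExpr (minimum count 10, minimum total 15; 19529 genes kept, all 83 members among them), scaled by TMM and tested with edgeR 4.0.16 (robust quasi-likelihood, R 4.3.3), with Benjamini-Hochberg adjustment over all genes kept. Standard errors come from the size of each log2 fold change and its F statistic (change over root F), and intervals are at 95%. The fits were checked on simulated data with seeded changes. CPM per kb uses the union of GENCODE M21 exons. Marker scores are mean log2 CPM (prior count 2) over marker lists. Correlations and group differences of scores used two-sided permutation tests with 100000 resamples. DESeq2 1.42.0, limma 3.58.1 (voom), other scaling factors and filters, covariates and leaving out each library were tried as alternatives. Depth, from 17570311 to 38680621 counts per library, limits the low genes most.

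The members, classes, marker and partner lists were chosen with earlier results of these data known. Genes are named by rule: every member with an unadjusted p under 0.05, or the 6 with the smallest p, the 3 highest and the lowest per length in each class, the 5 largest and 3 smallest CV at a mean count of 50 or more, the 3 largest absolute r for each measure, and Kcnj13, Kcne2, Kcnj10, Kcnj8, Kcnq1ot1 and Kcnrg. Results of some genes that the rule selects are not reported here. Other genes named were chosen after their values were seen. Promoters come from RefSeq (GRCm38.p6).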

Additional observations from a re-analysis of the deposited data

How the results depend on the processing

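No member passed the adjusted threshold under any of 10 other settings, with any 1 library left out, or without control replicates 2 and 7, a setting chosen after seeing the data. The count at an unadjusted p under 0.05 was 5, and it was 3 without scaling factors, 1 with limma voom, 4 to 6 under the other 8, 2 to 6 with 1 library left out, and 5 without control replicates 2 and 7, where 2 of the 5 (Kcnh3 and Kcnh4) were shared. The cause was not tested, and the share of all genes at an unadjusted p under 0.05 is given for the main fit only. Single log2 fold changes were compared across settings only for Kcnb2, Kcnh3, Kcnh4, Kcnj16, Kcnk5, Kcne2, Kcnj13, Kcnj10, Kcnj8, Kcnq1ot1 and Kcnrg. Of 459 alternative values of these genes, 456 kept direction. The smallest adjusted p among the alternatives was 0.48, so no value came near the adjusted threshold, and some crossed an unadjusted p of 0.05. The 3 that reversed were those of Kcnj13 (-0.18 to 0.083 with 1 library left out): 0.11 with region scores as covariates, 0.083 without control replicate 7 and 0.12 without control replicates 2 and 7. The median log2 fold change of the members ran from -0.018 to 0.023 when single libraries were dropped, and was 0.048 without scaling factors, where that of all genes was 0.043. The 84 pairs of gene and composition measure were 212 without scaling factors, 72 once the 2 farthest libraries were dropped, 39 in control alone and 53 in deltamethrin alone. The r of Kcnh1 with the oligodendrocyte score reversed to 0.136 without scaling factors. With longest-transcript lengths, 9 of the 10 highest levels were shared. No paired analysis was possible because numbers of replicates were given in accession order, and a shared number pairs nothing. Low genes are limited by depth: a mean count filter of 50 removed Kcnk5, Kcnj13 and Kcnrg.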
